A study of Mus musculus with 27 samples.

Results

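The RNA levels of 8 secreted fibroblast growth factor (FGF) ligands, Fgf3, Fgf4, Fgf8, Fgf9, Fgf10, Fgf15, Fgf17 and Fgf18, were followed through limb buds, ES cell-derived limb bud mesenchyme and other tissues of the mouse embryo. They were chosen by name from the 23279 genes listed, and all 8 passed the filter on low values, Fgf3 chiefly through the tail bud, so that a ligand high in only 1 group had to differ there. The series holds 27 RNA-seq libraries in 9 groups of 3. Replicate 2 of the E10.5 hindlimb buds was left out because it holds no values for several chromosomes, so 26 libraries were used and the E10.5 hindlimb buds had n = 2.

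FGF ligands bind receptor tyrosine kinases of the Fgfr family on neighbouring cells, and the signal through the RAS and ERK kinases turns on feedback genes such as Dusp6, Spry4 and the Etv transcription factors. In the limb bud, mesenchymal Fgf10 signals to the overlying ectoderm, where the apical ectodermal ridge (AER) makes Fgf8, Fgf4, Fgf9 and Fgf17, which act back on the mesenchyme and keep it growing. Fgf3, Fgf4, Fgf8, Fgf17 and Fgf18 are also known from the tail bud, where FGF signalling maintains the presomitic mesoderm, and Fgf15, the mouse counterpart of human FGF19, is known from the neural tube, the pharyngeal region and the gut.

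The embryonic groups came from Slc:ICR mice. Early forelimb buds (early FLBs) and early hindlimb buds (early HLBs) are labelled E10.0, although the figure legend of the study gives the forelimb buds an earlier and the hindlimb buds a later stage. E10.5 FLBs, E10.5 HLBs, branchial arch (BA), tail bud (TB) and heart (Ca, labelled cardiac) were taken from E10.5 embryos. These tissues were dissected whole, with no sorting named, and the methods name 3 embryos without saying whether each library came from 1 of them. ES-FLB and ES-HLB cells came from aggregates of the EB5 ES cell line with a heterozygous green fluorescent reporter in Hand2, a transcription factor of limb bud mesenchyme, and the line is 1 knock-in line. Both types received BMP4 and Matrigel, and later the BMP inhibitor LDN193189 and Wnt3. The forelimb type received retinoic acid and the hindlimb type a retinoic acid antagonist, so limb type and retinoid treatment cannot be told apart in the cultures. On day 9 the reporter-positive mesenchyme was sorted, so that the epithelium around the aggregates was meant to be removed, whereas the embryonic limb buds kept theirs.

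Levels are given as scaled CPM, the deposited CPM (read counts relative to library size) after scaling between libraries. Depth was 5543751 to 22141959 reads on genes. The early limb buds were deepest and the E10.5 limb buds shallowest, and the level that 3 reads give, used here as a detection limit or floor, was 0.148 to 0.543 scaled CPM. This floor covers counting error only. Differences were tested with limma on log2(scaled CPM + 0.5), a scale that understates the change of low genes, and a difference is called where the adjusted p (Benjamini-Hochberg, over 14697 genes tested) is below 0.05. The methods give independent experiments for the PCR of sorted cells, but no source says that the sequenced libraries of a group came from separate animals or cultures, so the p-values measure only the spread between these samples, which may be technical.

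The tissue labels were set against marker lists. Limb mesenchyme markers summed to 1516 to 2121 scaled CPM in the limb buds and ES cells, to 1455 to 1536 in BA, which overlapped them, to 504 to 547 in TB and to 477 to 596 in Ca, cardiac muscle markers were highest in Ca, and tail bud markers summed to 461 to 529 in TB and to at most 27.7 in any other library. Hand2, the gene used for the sort, had a mean of 156 scaled CPM in ES-FLB and 236 in ES-HLB, against 87.9 in the early FLBs and 109 in the early HLBs. Epithelial RNA was lower in the sorted cells but not absent. The 16 markers of limb ectoderm and ridge summed to 146 to 215 in ES-FLB and 280 to 301 in ES-HLB, against 603 to 759 in the early FLBs and 543 to 638 in the early HLBs, and none of the 16 was at 0 in every library of either cell type.

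Fgf8 and Fgf10 made up most of the ligand RNA of the limb buds, and other ligands led elsewhere. To compare ligands with each other, scaled CPM was divided by the length of the longest coding transcript. Per kilobase, Fgf8 held 57.2% of the summed level of the 8 ligands in the early FLBs, 54.2% in the E10.5 FLBs, 76.5% in the early HLBs and 71.5% in the E10.5 HLBs. In each of these 4 groups Fgf10 was next, with 19.99% to 38.5%. Fgf8 also led in BA with 53.5%. The ES cells had another order. Fgf10 led in ES-FLB with 45.4%, followed by Fgf15 with 35.7%, and Fgf15 held 70.6% in ES-HLB, where Fgf10 held 15.3%. In TB the highest were Fgf15 with 28.9%, Fgf17 with 21.6% and Fgf18 with 21.2%, and their order changed when all exons were counted as the length. The summed level was lowest in Ca, at 6.35 scaled CPM per kilobase, against 59.6 in the early HLBs.

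**Figure D1:**
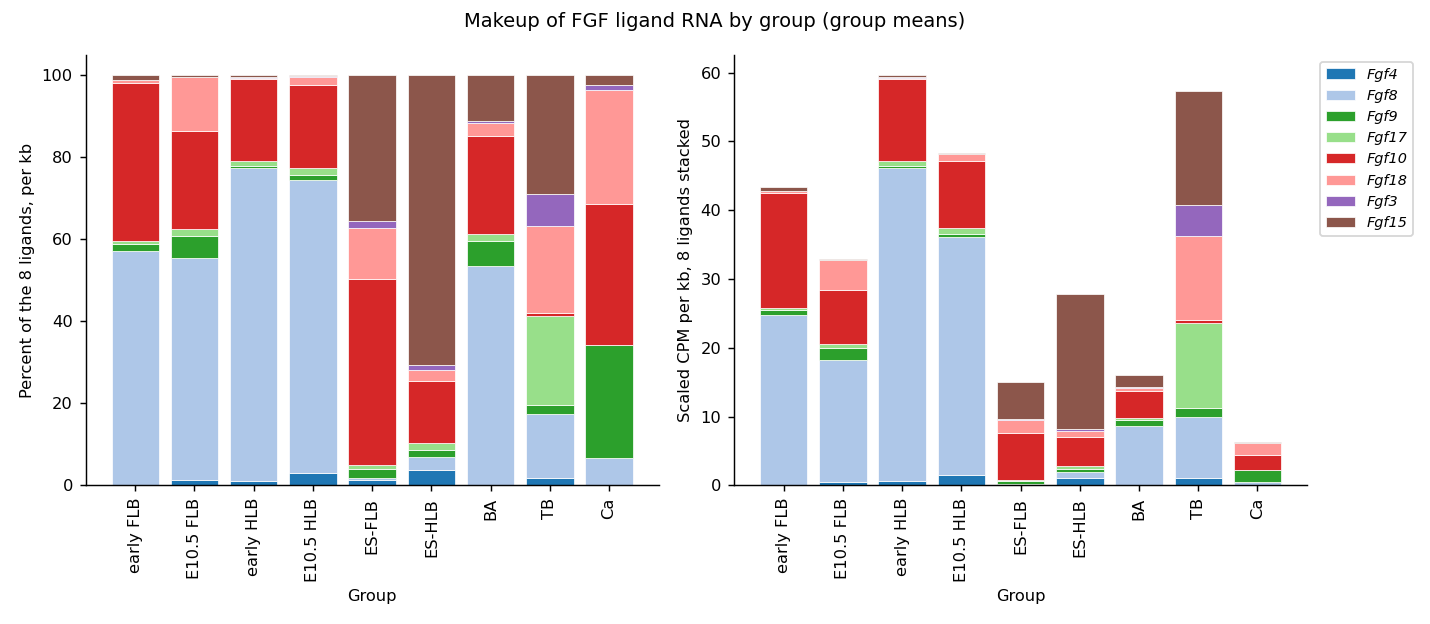
Makeup of FGF ligand RNA in the 9 groups, from group means per kilobase of the longest coding transcript, as a percent of the 8 ligands (left) and stacked as scaled CPM per kilobase (right). Fgf8 takes 54.2% to 76.5% of the bars of the 4 limb bud groups, and Fgf15 takes 70.6% of the ES-HLB bar.

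Fgf8, the ligand found along the whole ridge, was at 27.5, 34.3 and 24.9 scaled CPM in the early FLBs and at 58.8, 52.2 and 48.8 in the early HLBs. The E10.5 FLBs had 17.1, 23.9 and 21.4, and the E10.5 HLBs 41.6 and 39.1. Every hindlimb library was thus above every forelimb library, and within each limb type every E10.5 library was below every early one. In ES-FLB 2 libraries were listed at 0 and the other held 2 reads (0.244), and in ES-HLB the values were 0.766, 1.42 and 0.838. BA (9.03, 12.6 and 8.52) and TB (10.8, 9.46 and 11.03) lay between the limb buds and the ES cells and overlapped each other. Ca was at 0.783, 0.423 and 0.273, near the floor. In the order of the 9 group means, 5 of the 8 neighbouring pairs were called (between such neighbours 18.5% to 78.1% of all genes were called), and early HLB and E10.5 HLB (adjusted p = 0.182), E10.5 HLB and early FLB (adjusted p = 0.0688), and TB and BA (adjusted p = 0.812) did not pass the test, although the libraries of the former 2 pairs did not overlap. In such bulk samples, fewer ridge cells and less Fgf8 RNA per ridge cell cannot be told apart.

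Fgf4, a ligand of the posterior ridge, was barely detected in the early FLBs. They held 0, 1 and 1 reads (0 to 0.0517 scaled CPM), whereas the early HLBs were at 3.36, 1.20 and 0.818, a wide spread in which replicate 1 stood apart. The E10.5 FLBs had 1.20, 1.82 and 0.872, and the E10.5 HLBs 5.25 and 3.70. All early HLB libraries were above all early FLB libraries, and both E10.5 HLB libraries were above all E10.5 FLB libraries. ES-HLB was at 3.58, 2.85 and 3.23, all above ES-FLB at 0.608, 0.779 and 0.366. TB had 3.01, 3.97 and 2.76 and overlapped ES-HLB. BA and Ca were listed at 0 in every library. The order of groups began with E10.5 HLB, TB and ES-HLB, which did not pass the test as neighbours, and 3 of its 8 neighbouring pairs were called.

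Fgf9, a further ridge ligand that is also made in heart and other tissues, had group means from 0.980 to 6.29 scaled CPM and was above 0 in every group. It was at 7.04, 6.62 and 5.19 in Ca, at 5.65, 4.97 and 8.19 in the E10.5 FLBs and at 2.25, 6.07 and 5.06 in TB. BA was at 2.92 to 4.26, the early FLBs at 2.50, 2.30 and 2.95 and the E10.5 HLBs at 2.17 and 1.41. The lowest were ES-HLB with 1.28 to 1.92, ES-FLB with 0.730 to 1.82 and the early HLBs with 0.763 to 1.14. No neighbouring pair of this order was called. Within the limb buds every forelimb library of either stage was above every hindlimb library.

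Fgf17, a posterior ridge ligand that is also known from the tail bud, was at 17.3, 20.8 and 24.8 scaled CPM in TB. The highest library of another group had 1.94, and Ca was listed at 0 in all 3 libraries. Among the limb buds the means ran from 0.476 in the early FLBs to 1.51 in the E10.5 HLBs, on 28 and 17 reads in all. TB and E10.5 HLB differed as neighbours (log2 fold change 3.43, SE 0.27, adjusted p = 4.91e-12), and of the other neighbours only ES-FLB and Ca were called (adjusted p = 0.0341).

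Fgf10, the mesenchymal signal that induces the ridge, had the smallest standard errors of the 8 ligands. It was at 70.2, 71.4 and 64.3 scaled CPM in the early FLBs, 46.6, 50.7 and 49.9 in the early HLBs, 40.3 and 39.8 in the E10.5 HLBs and 31.7, 33.3 and 31.7 in the E10.5 FLBs. These 4 groups did not overlap. ES-FLB followed with 28.0, 31.2 and 25.2, and ES-HLB with 16.1, 17.7 and 18.7, close to BA at 17.3, 14.9 and 15.5. Ca was at 8.48, 9.16 and 9.29, and TB was lowest with 1.75, 1.52 and 1.61. Of the 8 neighbouring pairs, 6 were called, the most of any ligand, and the 2 that were not were E10.5 FLB with ES-FLB (adjusted p = 0.0524) and ES-HLB with BA (adjusted p = 0.201). Fgf10 overlaps an antisense transcript, Gm16263, over 20105 bases of gene span. Overlap of their exons was not measured, and the strand setting of the counting is not given in the sources used here. Whether reads of Gm16263 were counted for Fgf10 was therefore not tested.

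Fgf18, which in the embryo is known from skeletal mesenchyme and the tail bud, was highest in TB at 12.1, 16.1 and 11.4 scaled CPM. The E10.5 FLBs followed with 4.45, 5.80 and 3.83, above every other limb bud library. It was at 0.102, 0.599 and 0.310 in the early FLBs and at 0.197, 0.312 and 0.164 in the early HLBs, and at 1.63 and 0.529 in the E10.5 HLBs. ES-FLB, with 2.43, 1.30 and 2.32, lay above every early FLB library, above every ES-HLB library (0.766, 0.712 and 0.958) and below every E10.5 FLB library. In the order of groups, TB against E10.5 FLB and E10.5 FLB against ES-FLB were called, as was Ca against E10.5 HLB.

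Fgf3 and Fgf15 are neighbours of Fgf4 on chromosome 7 but were low in every limb bud. Fgf3, known from the tail bud, hindbrain and ear, was at 9.64, 13.1 and 8.85 scaled CPM in TB and at no more than 1.08 in any other library. The limb bud libraries held 0 to 3 reads each. ES-FLB had 5, 7 and 1 reads and ES-HLB 5, 4 and 9. The only called pair in the order of groups was TB with ES-HLB (log2 fold change 3.13, SE 0.26, adjusted p = 2.01e-12). As Fgf3 passed the filter chiefly through TB, a difference there was set in advance, and this p adds no support. Fgf15 was highest in ES-HLB, with 40.7, 29.8 and 36.0 scaled CPM, and in TB, with 25.9, 36.1 and 27.9, and these groups overlapped (adjusted p = 0.335). ES-FLB was at 9.97, 8.44 and 10.7, above BA at 2.03, 4.20 and 3.43. The limb buds held 0.171 to 1.12 and Ca 0.137 to 0.391. Fgf15 overlaps 2 antisense transcripts, Gm26793 and Gm39119, by 931 and 1641 bases of gene span.

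**Figure D2:**
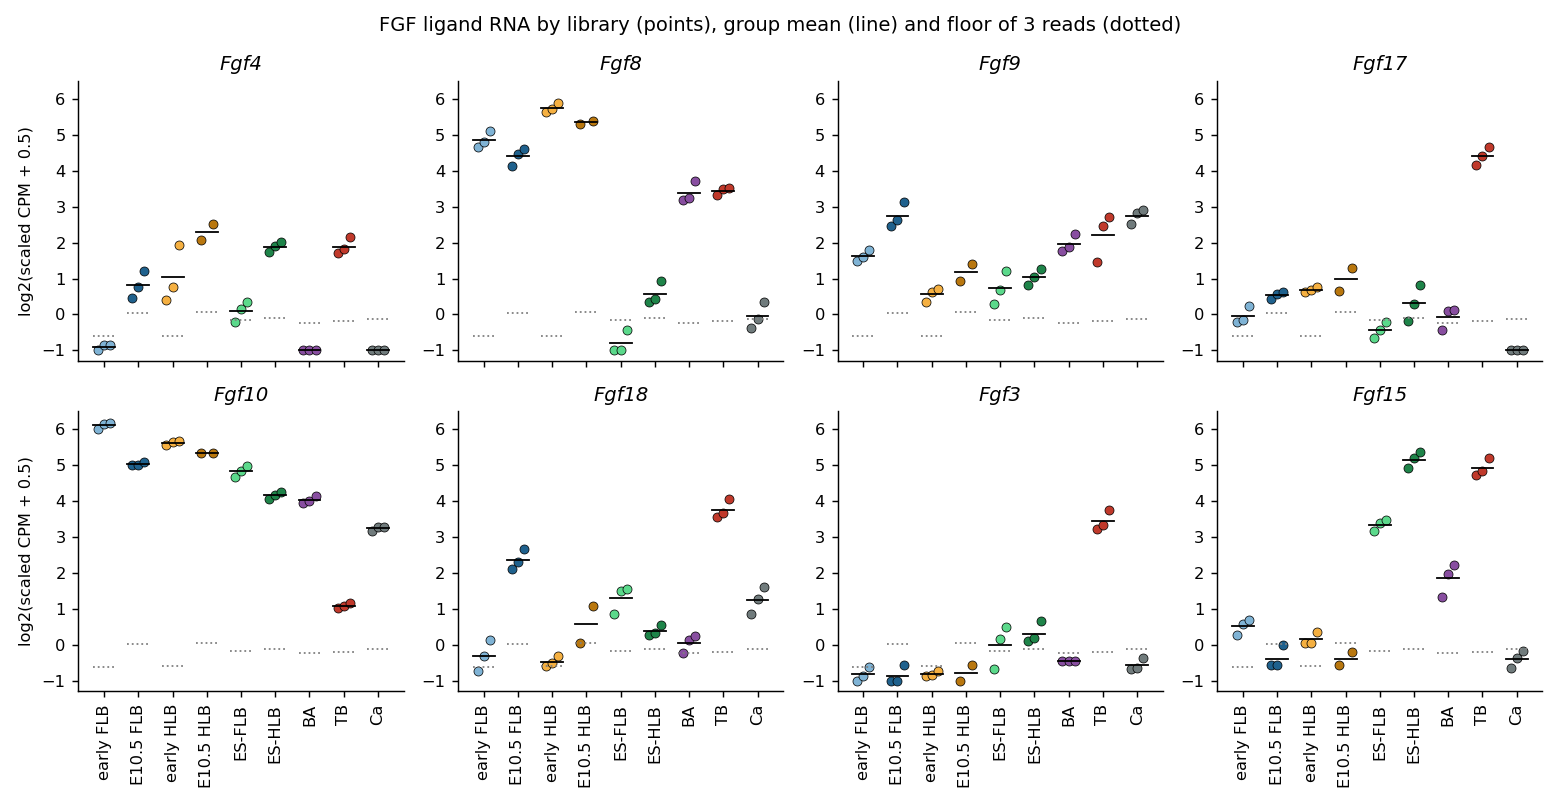
Level of each ligand in the 26 libraries, as log2(scaled CPM + 0.5), by group, with each point a library, the solid line the mean of the log2 values and the dotted line the highest floor of 3 reads in the group. Fgf8 and Fgf10 are high in the limb buds, Fgf3 and Fgf17 stand out in TB alone, and Fgf15 is highest in ES-HLB and TB.

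The change from the early to the E10.5 limb buds was compared within each limb type. Every early library held at least 19642074 reads on genes and every E10.5 limb bud library used at most 5908832. Stage and any effect of depth thus cannot be told apart by design. In the forelimb buds 7 of the 8 ligands were called, where 58.3% of all genes tested were called. Fgf18 rose by a log2 fold change of 2.66 (SE 0.27, adjusted p = 3.92e-10), a 13.9-fold difference of means. Fgf4 rose by 1.72 (SE 0.27, adjusted p = 2.54e-06), and since the early FLBs held only 2 reads in all, the ratio of 38.5 has a counting interval of 9.51 to 337. Fgf9 rose by 1.11 (SE 0.26, adjusted p = 0.000514). All of these were higher in every E10.5 library, but the share of all genes that separate in this way is not given here. Fgf10 fell by 1.08 (SE 0.09, adjusted p = 7.46e-12), to 0.470 times its early mean, and Fgf15 by 0.89 (SE 0.22, adjusted p = 0.000982), a call lost when values were weighted by the precision that their reads give (precision weights, adjusted p = 0.0609). Fgf17, with a log2 fold change of 0.60 (SE 0.24, adjusted p = 0.0344), and Fgf8, with −0.47 (SE 0.19, adjusted p = 0.0400), were called less firmly. The adjusted p of Fgf8 was 0.189 without scaling and 0.0971 with a pseudocount of 0.25, and leaving out any of 4 of the 6 forelimb libraries took its call, as 4 of 6 took that of Fgf17. Fgf3 had a log2 fold change of −0.03, with an interval of −0.56 to 0.49, on 5 reads in all.

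The summed level of ridge markers fell between the stages in both limb types. In the hindlimb buds, where the change of Fgf8 was not called, the sum was 404 to 429 scaled CPM at E10.5 and 543 to 638 in the early HLBs. The 16 markers of limb ectoderm and ridge summed to 416 to 434 scaled CPM in the E10.5 FLBs against 603 to 759 in the early FLBs. Of them 7 were lower and 3 higher, with a median log2 fold change of −0.68 against −0.01 over all genes. As 58.3% of all genes were called, the count of called markers is close to the usual case. Sp6, a ridge transcription factor, had means of 80.4 and 16.1, and as a single member it does not stand for the list. The sum of somite and muscle markers moved with Fgf9 and Fgf18. The list of 8 summed to 94.1 to 120 in the E10.5 FLBs, 45.4 to 55.2 in the early FLBs and 42.5 to 43.2 in the E10.5 HLBs. Pax1, 1 of the 8 and a factor of sclerotome and shoulder girdle, had means of 44.5, 0.188 and 4.47 in these groups. Much of the rise in the sum thus lay in Pax1, and the sum does not show that the whole list rose. The part of ridge, somite and muscle cells in the ligand values was not tested.

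In the hindlimb buds, with 2 libraries at E10.5, 3 of the 8 ligands were called between the stages, where 28.5% of all genes were called. Fgf4 rose by a log2 fold change of 1.26 (SE 0.31, adjusted p = 0.00204), Fgf18 rose by 1.04 (SE 0.30, adjusted p = 0.00848), and Fgf10 fell by 0.29 (SE 0.10, adjusted p = 0.0314). These calls were weak. Without E10.5 HLB replicate 1 none of the 8 ligands was called, and without scaling 2 were called higher and 0 lower. With only these groups in the fit, Fgf4 was not called (adjusted p = 0.0608). Fgf8 had a log2 fold change of −0.39 (interval −0.83 to 0.05, adjusted p = 0.182), which was called with only these groups in the fit (adjusted p = 0.00784) and with precision weights (adjusted p = 0.0220), and Fgf9 one of 0.62 (interval 0.02 to 1.22, adjusted p = 0.114).

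The stage changes of the limb types were compared directly as the difference of the log2 fold changes. It was called for 2 ligands, where 20.3% of all genes were called. Fgf10 fell less in the hindlimb buds (difference 0.79, SE 0.14, adjusted p = 8.36e-05), and the order of the limb types changed with stage, since the early FLBs were above the early HLBs and the E10.5 HLBs above the E10.5 FLBs. Fgf18 rose less in the hindlimb buds (difference −1.62, SE 0.40, adjusted p = 0.00379), a call that was lost without E10.5 HLB replicate 3 (adjusted p = 0.0739) and with precision weights (adjusted p = 0.0998). Fgf4 was called with precision weights (difference −3.12, adjusted p = 0.0130). The labelled ages of the early limb buds are the same, but the stages in the figure legend are not, and stage and limb type cannot be told apart there.

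Between limb types, the ridge ligands Fgf4 and Fgf8 were higher in hindlimb buds and Fgf9 was lower, at both stages. For the early limb buds 5 of the 8 ligands were called, where 18.5% of all genes were called. Fgf4 was higher in the early HLBs by 1.94 on the log2 scale (SE 0.27, adjusted p = 2.86e-06; ratio 54.0, counting interval 14.6 to 452), and Fgf8 by 0.88 (SE 0.19, adjusted p = 0.00118), a 1.84-fold difference. Fgf9 was lower, with a log2 fold change of −1.06 (SE 0.26, adjusted p = 0.00355) and a mean 0.379 times that of the forelimb buds, and Fgf10 had −0.48 (SE 0.09, adjusted p = 0.000191). Fgf17 was higher (log2 fold change 0.73, SE 0.24, adjusted p = 0.0305), but lost its call without any of 5 of the 6 libraries of these groups. Of the response genes named above, Dusp6 was higher in the early HLBs (log2 fold change 0.70, SE 0.08, adjusted p = 3.92e-07) and so was Etv4 (0.35, SE 0.09, adjusted p = 0.00837). Spry4 and the other Etv genes are not given for this comparison. The whole list of 11 response and feedback genes summed to 1005 to 1113 scaled CPM in the early HLBs and 838 to 983 in the early FLBs. A link of these genes to the ligand differences was not tested.

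At E10.5 again 5 of the 8 were called between limb types, where 20.5% of all genes were called. Fgf4 was higher in the hindlimb buds by 1.49 on the log2 scale (SE 0.31, adjusted p = 0.000728) and Fgf8 by 0.95 (SE 0.22, adjusted p = 0.00195). Fgf9 was lower, with −1.55 (SE 0.29, adjusted p = 0.000284), and so was Fgf18, with −1.79 (SE 0.30, adjusted p = 6.31e-05). Fgf10 was higher by 0.31 (SE 0.10, adjusted p = 0.0274), and this call was lost without scaling (adjusted p = 0.0800) and when E10.5 HLB replicate 2 was included (adjusted p = 0.161). The ectoderm and ridge markers summed to 404 to 429 scaled CPM in the E10.5 HLBs and 416 to 434 in the E10.5 FLBs, so that their sum overlapped between the limb types.

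**Figure D3:**
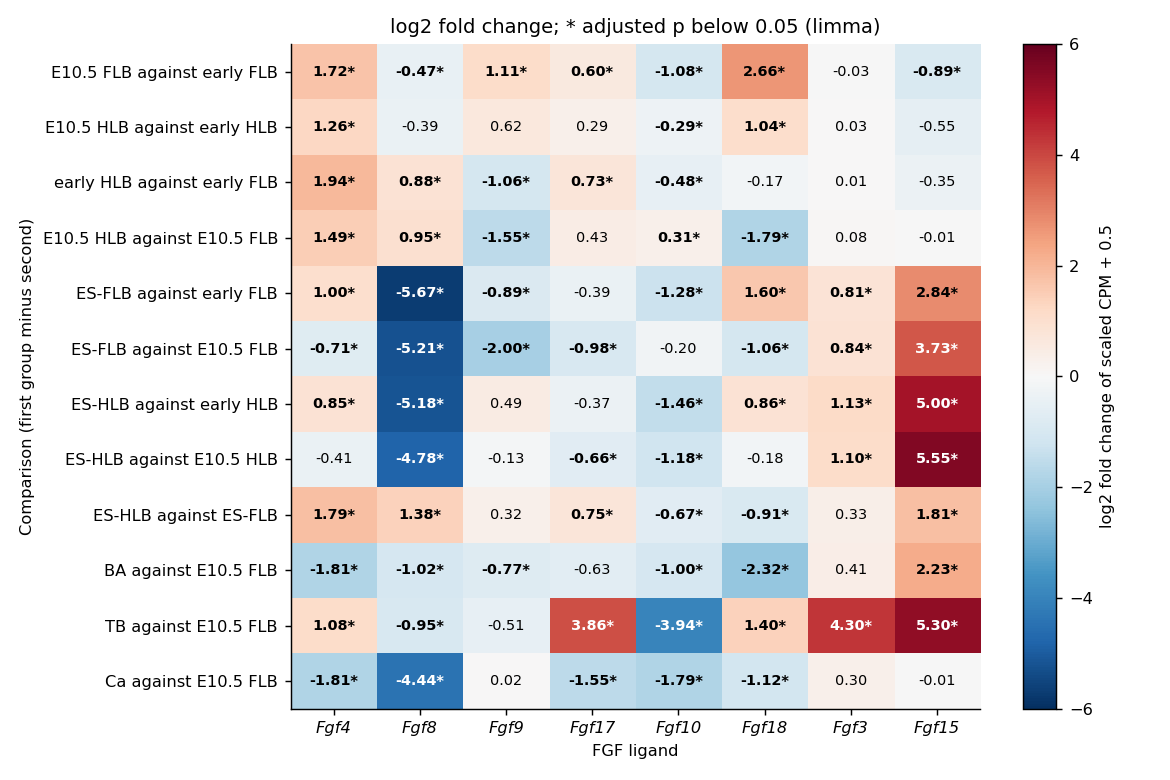
The log2 fold change of each ligand in 12 comparisons from the same limma fit, each the former group minus the latter, with an asterisk and bold type where the adjusted p is below 0.05. Between the ES cells and limb buds of their type, Fgf8 has log2 fold changes of −5.67 to −4.78 and Fgf15 of 2.84 to 5.55.

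The ES-derived mesenchyme was compared with the limb buds of its own type, at both stages, with the ES libraries shared between these comparisons. Against the early FLBs 7 of the 8 ligands were called in ES-FLB, where 76.1% of all genes were called, so a called ligand is close to the usual case there. Fgf8 was lower in ES-FLB, with a log2 fold change of −5.67 (SE 0.19, adjusted p = 3.04e-22), and with 2 reads in ES-FLB the inverse ratio of 349 has a counting interval of 96.6 to 2887. Fgf10 was lower too, with −1.28 (SE 0.09, adjusted p = 3.05e-14) and a mean 0.410 times that of the early FLBs, as was Fgf9, with −0.89 (SE 0.26, adjusted p = 0.00295). Fgf15 was higher by 2.84 (SE 0.22, adjusted p = 4.55e-13), or 10.4-fold, and Fgf18 by 1.60 (SE 0.27, adjusted p = 2.73e-06), or 5.98-fold. Fgf4 was higher by 1.00 (SE 0.27, adjusted p = 0.00145), on 14 reads against 2. Fgf3 was higher by 0.81 (SE 0.26, adjusted p = 0.00518), and that call was lost without ES-FLB replicate 2 (adjusted p = 0.0652).

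Against the E10.5 FLBs the picture differed for the ligands that change with stage. Again 7 of the 8 were called, where 68.2% of all genes were called. Fgf10 did not pass the test (log2 fold change −0.20, SE 0.09, interval −0.38 to −0.01, adjusted p = 0.0524), and it was called with a pseudocount of 1 (adjusted p = 0.0483), without a filter, with precision weights and without ES-FLB replicate 2. Fgf18, higher than in the early FLBs, was lower than in the E10.5 FLBs, with −1.06 (SE 0.27, adjusted p = 0.000800), and so was Fgf4, with −0.71 (SE 0.27, adjusted p = 0.0221), a call lost with precision weights (adjusted p = 0.1003). Fgf8 stood at −5.21 (SE 0.19, adjusted p = 1.64e-20) and Fgf9 at −2.001 (SE 0.26, adjusted p = 5.87e-08). Fgf15 was higher by 3.73 (SE 0.22, adjusted p = 1.69e-15).

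ES-HLB had 6 of the 8 ligands called against the early HLBs, where 74.5% of all genes were called. Fgf8 was lower, with a log2 fold change of −5.18 (SE 0.19, adjusted p = 6.85e-21) and a 52.8-fold difference of means, and Fgf10 was lower, with −1.46 (SE 0.09, adjusted p = 1.31e-15) and a mean 0.356 times that of the early HLBs. Fgf15 was higher by 5.00 (SE 0.22, adjusted p = 4.72e-19), a 57.0-fold difference. Fgf4, Fgf18 and Fgf3 were higher by 0.85, 0.86 and 1.13, with adjusted p of 0.00593, 0.00470 and 0.000210, and the call of Fgf4 was lost without early HLB replicate 3 (adjusted p = 0.0936). Against the E10.5 HLBs 5 of the 8 were called, where 68.0% of all genes were called. The log2 fold change was −4.78 (SE 0.22) for Fgf8, −1.18 (SE 0.10) for Fgf10 and −0.66 for Fgf17 (SE 0.27, adjusted p = 0.0310, a call lost under several alternatives). Fgf15 and Fgf3 were higher by 5.55 (SE 0.25) and 1.10 (SE 0.29). Fgf4 did not pass the test there (log2 fold change −0.41, interval −1.03 to 0.22).

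Epithelial markers moved with Fgf8 in these comparisons. Of the 16 markers of limb ectoderm and ridge, 12 were lower and 1 higher in ES-FLB than in the early FLBs, with a median log2 fold change of −2.06, and 11 were lower and 1 higher in ES-HLB than in the early HLBs, with a median of −1.39. Over all genes the medians were 0.02 and 0.03, and 76.1% and 74.5% were called, so the count of called markers is close to the usual case. Trp63, an epidermal transcription factor, had a mean of 3.63 scaled CPM in ES-FLB and 4.14 in ES-HLB, against 69.1 and 58.6 in the early buds, and Wnt7a, a signal of dorsal ectoderm, was at 0.122 and 0.208 against 35.2 and 31.7. The part of the removed epithelium in the Fgf8 difference was not tested, and the sort, the culture and the tissue cannot be told apart by design.

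Between ES-FLB and ES-HLB, markers of pluripotent cells moved with Fgf4 and Fgf15, and also with Fgf8 and Fgf17. Within ES-HLB, replicate 1 had the lowest sum of these markers, 76.6 scaled CPM, but the highest Fgf4 (3.58) and Fgf15 (40.7). The 7 markers summed to 19.9 to 29.0 scaled CPM in ES-FLB and 76.6 to 110 in ES-HLB, against 3.44 to 6.81 in the limb buds. In the E10.5 HLBs, where Fgf4 was highest with a mean of 4.47 scaled CPM, they summed to 3.44 to 6.52. In Ca they summed to 39.7 to 47.0, where Fgf4 was listed at 0. Only 2 of the 7 reached a mean of 1 scaled CPM in Ca, against all 7 in both ES cell types. Pou5f1 was at 0 in every Ca library, so the Ca sum does not stand for the whole list. Pou5f1 (Oct4) had means of 4.11 in ES-FLB and 17.0 in ES-HLB and was at no more than 0.172 in any limb bud group. Fgf4 is a known gene of pluripotent cells. Neural tube markers, a list of 8, summed to 32.1 to 40.7 in ES-FLB and 33.6 to 45.8 in ES-HLB, against 7.41 to 17.3 in the limb buds and 161 to 188 in TB, where Fgf15 was also high. In BA they summed to 41.6 to 137, where Fgf15 was at 2.03 to 4.20. In BA only 3 of the 8 had a mean of at least 1 scaled CPM, against all 8 in TB. Sox2, a member of this list that both neural and pluripotent cells express, had means of 8.89 in ES-FLB, 23.3 in ES-HLB and 61.9 in TB. The sum of the list overlapped between ES-FLB and ES-HLB, so Sox2 does not stand for the list. The part of such cells in the ligand values was not tested.

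**Figure D4:**
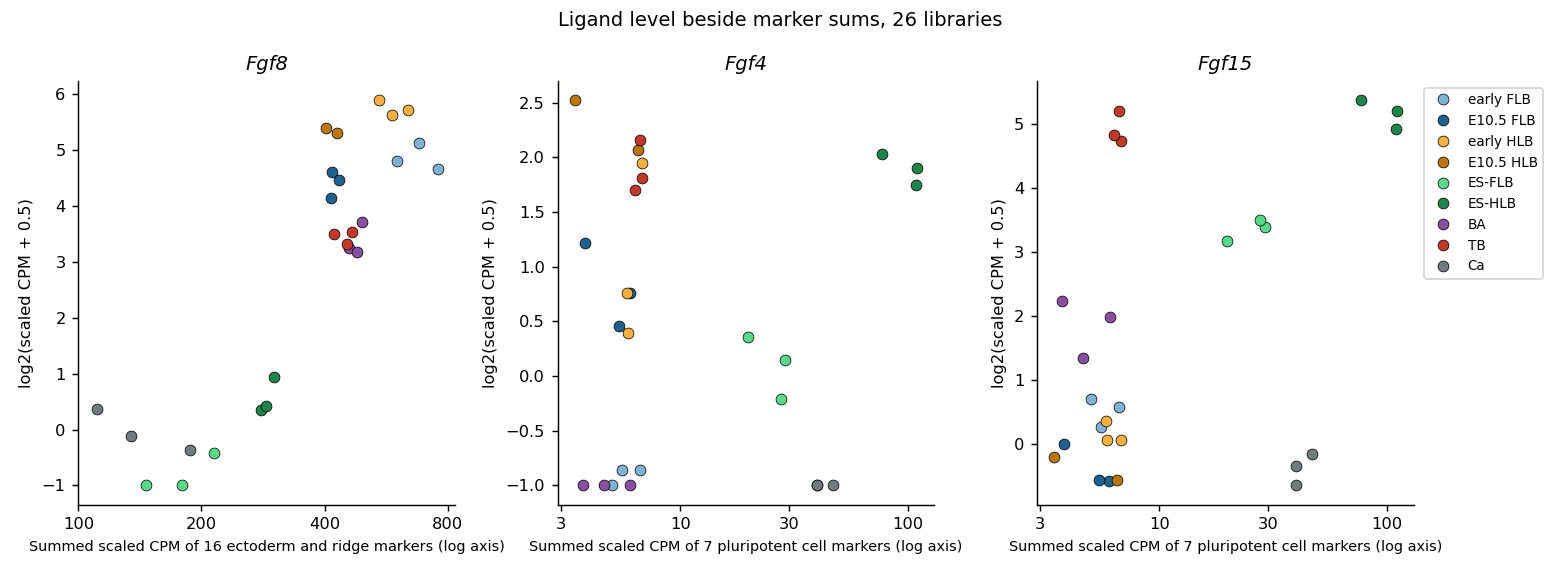
Level of Fgf8, Fgf4 and Fgf15 as log2(scaled CPM + 0.5) in each of the 26 libraries, against the summed scaled CPM of 16 ectoderm and ridge markers (left) or 7 pluripotent cell markers (middle and right, log axes), coloured by group. ES-HLB stands apart with marker sums of 76.6 to 110 for pluripotent cells, and TB has similar levels of Fgf4 and Fgf15 with sums of 6.32 to 6.76.

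The forelimb and hindlimb types of ES-derived cells differed in 6 of the 8 ligands, where 19.9% of all genes were called. Fgf4 was higher in ES-HLB by 1.79 on the log2 scale (SE 0.27, adjusted p = 8.74e-06), a 5.51-fold difference of means, and Fgf15 by 1.81 (SE 0.22, adjusted p = 2.45e-07), a 3.66-fold difference. Fgf8 was higher by 1.38 (SE 0.19, adjusted p = 2.33e-06), on 23 reads against 2, which gives a ratio of 11.96 with a counting interval of 2.96 to 105. Fgf10 was lower in ES-HLB, with a log2 fold change of −0.67 (SE 0.09, adjusted p = 1.16e-06) and a mean 0.622 times that of ES-FLB. All of these 4 had groups that did not overlap, but the share of all genes that separate in this way is not given here. Fgf17 was higher by 0.75 (SE 0.24, adjusted p = 0.0255) and Fgf18 lower, with −0.91 (SE 0.27, adjusted p = 0.0134), and with precision weights neither was called (adjusted p = 0.123 and 0.0765). All 7 pluripotent cell markers and 7 of the 16 ectoderm and ridge markers were also higher in ES-HLB, with median log2 fold changes of 1.94 and 0.61 against 0.01 over all genes, and their part was not tested.

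Set beside the limb buds, the difference between the types in culture was tested against that between the early FLBs and early HLBs. It was called for 2 ligands, where 19.8% of all genes were called. For Fgf15 the culture difference was larger by 2.16 (SE 0.32, adjusted p = 5.64e-06), since the early limb buds had a log2 difference of −0.35. For Fgf9 it was larger by 1.38 (SE 0.37, adjusted p = 0.00713), with a difference of 0.32 in culture and −1.06 in the embryo. For the others the interval of this difference of differences included 0: it was −0.94 to 0.64 for Fgf4, −0.06 to 1.06 for Fgf8 and −0.45 to 0.07 for Fgf10. Fgf8 was called with a pseudocount of 0.25 (difference 1.08, adjusted p = 0.0244) and Fgf4 with precision weights (difference −2.47, adjusted p = 0.0491).

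TB differed from the E10.5 FLBs in 7 of the 8 ligands, where 45.4% of all genes were called, and these comparisons of BA, TB and Ca share the E10.5 FLB libraries. Fgf3 was higher by 4.30 on the log2 scale (SE 0.26, adjusted p = 3.84e-15), with 266 reads against 1 and a ratio of 186 with a counting interval of 33.0 to 7358. Because Fgf3 passed the filter chiefly through TB, its difference there was set in advance. Fgf15 was higher by 5.30 (SE 0.22, adjusted p = 6.65e-19) and Fgf17 by 3.86 (SE 0.24, adjusted p = 1.42e-14), or 107-fold and 21.7-fold. Fgf18 and Fgf4 were higher by 1.40 (SE 0.27) and 1.08 (SE 0.27), with adjusted p of 5.94e-05 and 0.00160. Fgf10 was lower, with −3.94 (SE 0.09, adjusted p = 7.48e-26) or 19.8-fold, and Fgf8 lower, with −0.95 (SE 0.19, adjusted p = 0.000144). Fgf9 did not pass the test (log2 fold change −0.51, interval −1.05 to 0.02).

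In BA 6 of the 8 ligands were called against the E10.5 FLBs, where 20.6% of all genes were called. Fgf15 was higher by 2.23 (SE 0.22, adjusted p = 2.26e-09), an 11.5-fold difference. Lower in BA were Fgf18, with −2.32 (SE 0.27, adjusted p = 3.85e-08), Fgf8, with −1.02 (SE 0.19, adjusted p = 0.000164), and Fgf10, with −0.999 (SE 0.09, adjusted p = 2.25e-10). Fgf4 was at least 3.73-fold lower, as BA held no reads of it. The call of Fgf9 (log2 fold change −0.77, SE 0.26, adjusted p = 0.0349) was lost without any filter (adjusted p = 0.0571). BA libraries also differed from each other in neural tube markers, which summed to 41.6 to 137.

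Ca had 5 of the 8 called, all lower, where 74.1% of all genes were called, 37.6% as lower. Fgf8 had a log2 fold change of −4.44 (SE 0.19, adjusted p = 1.40e-19), or 42.2-fold, and Fgf10 one of −1.79 (SE 0.09, adjusted p = 6.30e-18), or 3.59-fold. Fgf4 and Fgf17, both at 0 reads in Ca, were at least 3.18-fold and 2.37-fold lower, and Fgf18 stood at −1.12 (SE 0.27, adjusted p = 0.000380). Fgf9 had a log2 fold change of 0.02 (interval −0.51 to 0.56, adjusted p = 0.948), and per kilobase it held 27.6% of the ligand level of the heart, beside 34.4% for Fgf10 and 27.8% for Fgf18.

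Fgf3, Fgf4 and Fgf15 lie on the plus strand of chromosome 7 within 62.9 kb (GRCm38, GENCODE), at chr7:144838083-144844436, chr7:144847367-144865243 and chr7:144896531-144900953. Gaps of 2.93 kb and 31.3 kb separate these GENCODE spans, whereas the RefSeq span of Fgf3 ends at 144843348 and that of Fgf4 starts at 144861386. All 3 were higher in TB than in the E10.5 FLBs, but their patterns differed elsewhere. In the early HLBs and both E10.5 limb buds every library held at least 5 reads of Fgf4 and at most 2 of Fgf3, and in BA Fgf4 was listed at 0 while Fgf15 was at 2.03 to 4.20 scaled CPM. Fgf8 is at chr19:45736798-45742915 (minus strand), Fgf9 at chr14:58070547-58112720, Fgf10 at chr13:118669791-118792115, Fgf17 at chr14:70636203-70642268 (minus strand) and Fgf18 at chr11:33117430-33147400 (minus strand).

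The sequence before the start site is shown for 4 ligands, 3 that were high in TB and Fgf10, which was lowest there. RefSeq entries (GRCm38.p6) of 250 bases before the start were matched for 5 of the 8 ligands, Fgf3, Fgf4, Fgf9, Fgf10 and Fgf18. Bases within an annotated exon were left out, which shortened the window of Fgf3 to 233 bases. Each is written 5′ to 3′ on the strand of the gene, and capitals mark matches to the TCF/LEF motif of Wnt signalling (CTTTGA or CTTTGT) or to an E-box (CANNTG), searched on both strands. The windows are chr7:144838362-144838594 for Fgf3, chr7:144861136-144861385 for Fgf4, chr11:33147401-33147650 (minus strand) for Fgf18 and chr13:118714449-118714698 for Fgf10. Those of Fgf3, Fgf4 and Fgf10 lie before the RefSeq start but within the wider GENCODE spans given above.
Fgf3: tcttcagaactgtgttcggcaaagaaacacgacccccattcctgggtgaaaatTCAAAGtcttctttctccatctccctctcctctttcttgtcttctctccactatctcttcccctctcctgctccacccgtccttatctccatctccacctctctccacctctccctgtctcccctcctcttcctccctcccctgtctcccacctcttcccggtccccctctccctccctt
Fgf4: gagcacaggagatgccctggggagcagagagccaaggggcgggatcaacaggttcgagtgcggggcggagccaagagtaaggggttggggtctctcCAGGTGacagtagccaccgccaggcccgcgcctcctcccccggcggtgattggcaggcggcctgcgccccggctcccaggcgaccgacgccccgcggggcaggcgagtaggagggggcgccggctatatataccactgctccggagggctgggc
Fgf18: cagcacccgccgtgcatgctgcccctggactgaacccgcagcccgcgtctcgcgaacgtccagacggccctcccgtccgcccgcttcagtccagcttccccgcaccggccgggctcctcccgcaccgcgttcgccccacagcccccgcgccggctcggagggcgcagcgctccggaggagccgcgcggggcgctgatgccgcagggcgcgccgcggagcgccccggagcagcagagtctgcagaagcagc
Fgf10: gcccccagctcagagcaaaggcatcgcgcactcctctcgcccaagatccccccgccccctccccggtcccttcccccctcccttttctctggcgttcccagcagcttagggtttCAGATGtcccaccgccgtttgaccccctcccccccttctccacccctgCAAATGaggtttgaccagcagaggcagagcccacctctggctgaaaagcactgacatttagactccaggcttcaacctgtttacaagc
Fgf3 held 1 TCF/LEF match, 197 bases before the start, which 27.6% of the 32851 windows of this kind in the genome also held. Fgf4 held 1 E-box match and Fgf10 held 2, where 66.2% of all windows held any. Fgf18 had neither, and none of these 4 windows held the T-box motif TCACAC (12.3% of all windows) or the TATA box letters TATAAA (12.4%). They were rich in G and C, at 77.2% for Fgf18, 71.2% for Fgf4, 61.2% for Fgf10 and 55.2% for Fgf3, beside a median of 52.4% over all windows. Such matches describe letters and not bound sites. Other forms of the TATA box were not searched, such as the letters TATATATA that the Fgf4 window holds.

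The other genes of the pathway were described from lists. The 11 response and feedback genes of FGF signalling had 8 lower and 2 higher members in ES-FLB than in the early FLBs, with a median log2 fold change of −0.76, and 6 lower and 3 higher in ES-HLB than in the early HLBs, with a median of −0.59. Over all genes the medians were 0.02 and 0.03, and 76.1% and 74.5% were called. Etv4 had log2 fold changes of −2.36 (SE 0.09, adjusted p = 1.59e-20) and −2.101 (SE 0.09, adjusted p = 5.13e-19), and Dusp6, the ERK phosphatase, had −0.64 and −0.88 (SE 0.08 each), whereas Etv1 was higher by 0.96 and 1.00 (SE 0.13 each). ES-HLB had 7 of these genes higher and 1 lower than ES-FLB, with a median of 0.60 against 0.01 over all genes, of which 19.9% were called. Etv5 was higher there by 1.12 (SE 0.08, adjusted p = 1.00e-11), Spry2 by 1.19 (SE 0.09, adjusted p = 1.00e-11) and Spry4 by 0.98 (SE 0.12, adjusted p = 1.80e-07). The summed level of the list was 492 to 512 scaled CPM in ES-FLB, 704 to 724 in ES-HLB, 838 to 983 in the early FLBs and 1005 to 1113 in the early HLBs. In the other tissues it was 560 to 621 in BA, 578 to 617 in TB and 334 to 357 in Ca.

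Of 7 receptors and co-receptors, 6 were tested. Fgfr1, the main receptor of limb mesenchyme, had means of 516 scaled CPM in ES-FLB and 519 in ES-HLB, against 215 and 264 in the early buds (log2 fold changes 1.26 and 0.98, SE 0.06 each, adjusted p = 6.04e-17 and 3.02e-14). Fgfr2, whose epithelial isoform binds Fgf10, was lower in ES-FLB (log2 fold change −0.39, SE 0.10, adjusted p = 0.000932) and in ES-HLB (−0.46, SE 0.10, adjusted p = 0.000186). Reads of its epithelial and mesenchymal isoforms are in 1 value here. Klb, a co-receptor of Fgf15, had means of 1.35 and 1.15 in the ES cells and at most 0.0904 in the limb buds. Between the early and the E10.5 FLBs, Fgfr1 rose by 0.74 (SE 0.06) and Fgfr2 fell by 0.71 (SE 0.10), with adjusted p of 3.90e-11 and 1.37e-06. Of the 14 heparan sulfate and other extracellular modulators tested, 8 were higher and 3 lower in ES-FLB than in the early FLBs, and 7 higher and 3 lower in ES-HLB than in the early HLBs, with median log2 fold changes of 0.24 and 0.18. As 76.1% and 74.5% of all genes were called in these comparisons, these counts are close to the usual case, and the same shares apply to the lists that follow. The sulfatase Sulf1, which trims heparan sulfate, was at 239 and 204 scaled CPM against 34.5 and 33.0. Among 7 transducers, 5 were higher and 2 lower in both comparisons, with medians of 0.57 and 0.49.

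The further 10 secreted ligands were scarce. Only Fgf1, Fgf5 and Fgf7 passed the filter. Fgf1, a ligand of cardiac muscle among other tissues, had a mean of 13.3 scaled CPM in Ca (log2 fold change 3.156 against the E10.5 FLBs, SE 0.32, adjusted p = 3.20e-10). Fgf5 was higher in ES-HLB than in ES-FLB (log2 fold change 1.57, SE 0.23, adjusted p = 5.35e-06), and Fgf7 was higher in ES-FLB and ES-HLB than in the early buds by 1.59 and 1.49 (SE 0.23 each). Among the limb regulators of FGF loops, 11 of 20 were lower and 7 higher in ES-FLB than in the early FLBs, and 12 lower and 6 higher in ES-HLB than in the early HLBs, with medians of −0.93 and −1.17. Gremlin (Grem1), which links mesenchyme and ridge, had means of 25.7 in ES-FLB and 6.76 in ES-HLB against 8.40 and 23.9 in the early buds, and Shh means of 3.17 and 1.32 against 0.576 and 2.34.

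Genes with a pattern most like a ligand were ranked by Pearson r of log2(scaled CPM + 0.5) over the 26 libraries, among 12378 genes, and libraries of a group share their tissue, so r describes mainly the 9 groups. For Fgf8 the highest was Etv4 (r = 0.983), followed by Snrpg and Hmgn1, and for Fgf10 it was Hgf (0.936), followed by Prrx2 and Serpinf1. Fgf3 was closest to Hoxb13 (0.983), Cer1 and Olig3, and Fgf17 to Hoxc13 (0.947), Nkx1-2 and T, all of which are highest in TB. Fgf15 was closest to Tmprss2 (0.933), Snph and Abi3bp, Fgf18 to Sv2b (0.884), Lama3 and Cxcr4, and Fgf9 to Atp2a1 (0.843), Ccnd2 and Klf10.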

How the data were processed

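RNA-seq libraries (TruSeq stranded mRNA, single-end reads) were mapped by the authors with HISAT2 2.0.4 to mm10 and counted with Cuffdiff, and the deposited table holds CPM from edgeR 3.16.2 for 27 libraries, that is, read counts relative to library size. Column names gave the samples and the labels the groups. CPM of 26 libraries was scaled by trimmed means (trims of 30% and 5%), and log2(scaled CPM + 0.5) was fitted in 1 limma model (limma 3.58.1, statmod 1.5.0, R 4.3.3; trend and robust) over the 9 groups, for genes of at least 1 CPM in at least 2 libraries, with Benjamini-Hochberg adjustment for each comparison and a threshold of 0.05. Tables and plots were made in Python 3.11.15. The script was tested on simulated data.

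The values gave whole reads (within 0.1) for all 192 ligand values above 0, but this was not taken as proof for every gene, so count models were not used. Counting intervals and floors cover counting error only. Every ligand was named, and the 3 genes most like each by r among genes with a group mean of at least 5 CPM (those most like Fgf4 are not reported here). The ligands and gene lists were chosen with earlier results of these data known. Replicate numbers were not used as pairs, since in 0 of 12 comparisons did all same-numbered pairs correlate above 0.1. This cut does not settle whether libraries were paired, and a hint of pairing is given below. Alternatives were other scaling, pseudocounts, filters, a replicate block, only the compared groups, E10.5 HLB replicate 2 included, each library left out and, chosen after seeing the data, precision weights on recovered reads.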

Additional observations from a re-analysis of the deposited data

Results flagged for a closer look

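Some results differed between groups when the difference itself was tested in limma, and these 4 values are set out here. The hindlimb minus forelimb difference of the ES-derived cells exceeded that of the early limb buds by 2.16 on the log2 scale for Fgf15 and by 1.38 for Fgf9. The change from early to E10.5 limb buds differed between hindlimb and forelimb by 0.79 for Fgf10 and by −1.62 for Fgf18.

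The library left out of every comparison, E10.5 HLB replicate 2, also held ligand signal at or above the floor of 3 reads. Fgf8 was at 37.9 scaled CPM there, Fgf10 at 31.2, Fgf17 at 1.99, Fgf18 at 0.902 and Fgf9 at 0.541, which is at the floor. Fgf3, Fgf4 and Fgf15, all on chromosome 7, were listed at 0.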

How the results depend on the processing

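No value that was called, as reported or under an alternative, changed sign. Values not called in either changed sign 44 times, in 18 results. Among counts of called ligands, 552 values stayed within 1.5 times the reported count and 3 did not. With only the groups compared, 3 ligands were called between ES-HLB and the E10.5 HLBs instead of 5. With 1 library left out at a time, the count between the E10.5 and early HLBs ran from 0 to 3, with 0 without E10.5 HLB replicate 1, and the count for the difference of the stage changes ran from 1 to 2, with 1 without E10.5 HLB replicate 3. The cause was not tested. Of the values for single ligands, 1865 kept their side of the threshold, 60 lost their call and 12 gained one. The replicate block changed no call: 7 ligands were called between the E10.5 and early FLBs with it as without, and 24 neighbouring pairs. In 3 comparisons all 6 of 6 libraries correlated best with their own number, a hint from the data and not from the design. Over all genes, precision weights called 4481 instead of 2725 between the early HLBs and early FLBs and 1437 instead of 3016 between limb types at E10.5, where leaving out E10.5 HLB replicate 1 gave 1420. Without scaling the median of all genes moved to 0.22 and 0.18 for ES-FLB and ES-HLB against their early limb buds and to 0.13 between the E10.5 and early FLBs. The planned edgeR and DESeq2 fits were not run, since the values are CPM. Ligands with a few reads in a group, such as Fgf3 and Fgf4 in the early FLBs, have a wide counting error, although the early FLBs were the deepest libraries.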
